A study of Trametes elegans with 15 samples.

Results

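In the white-rot fungus Trametes elegans, 46 of 949 listed genes stood high on wheat straw, aspen and cellulose and low on pine and maltose. The members were chosen from the deposited log2 level in each of the 5 media. The 5 levels of a gene were sorted, the largest gap between neighbours was taken, and genes were kept where that gap was at least 1 with exactly straw, aspen and cellulose above it. On the log2 scale a gap of 1 is a doubling. Every medium entered this choice, so the distance between the 3 upper and the 2 lower media is described without a test. Tests were made for 3 contrasts within the upper media and for pine against maltose. The rule sets no direction for these 4 contrasts, but it is not independent of their size, since no step inside either group may exceed the gap. A looser rule, asking only that the lowest upper level lie at least 1 above the higher of pine and maltose, held for 76 genes or 8.01% of the table, the 46 included.

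The samples were mycelium of strain BRFM 1663, which the titles call Artolenzites elegans. It was cultured in shaken flasks at 30 °C for 3 days, in a mineral medium with yeast extract, thiamin and a changing carbon source. The labels list 3 samples for each of 5 media. Wheat straw at 15 g/l, pine wood at 15 g/l and Avicel, a microcrystalline cellulose, at 15 g/l each came with 2.5 g/l of maltose. Milled aspen at 15 g/l also came with maltose, in an amount whose print cannot be read. The medium with maltose as its main sugar held 20 g/l and no solid. Pine therefore shared its maltose content with straw and cellulose, whereas a comparison with the maltose medium changes both the solid and the amount of sugar. Whether replicates came from separate flasks is not stated, so the p-values reflect the spread between libraries alone, and that spread may be technical.

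White-rot fungi degrade cellulose, hemicellulose and lignin with secreted enzymes, among them cellulases, lytic polysaccharide monooxygenases, xylanases and lignin-modifying oxidases. In many fungi the genes of such enzymes are weakly transcribed on simple sugars and more strongly on plant polymers. Straw is a grass tissue and aspen a hardwood, both with xylan as a main hemicellulose, while the softwood pine is rich in mannans and has a lignin built mainly from guaiacyl units. The table identifies genes only by number, so the enzyme families of the 46 genes are not known here and none is assigned.

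Levels are log2(normalised read count + 1) as the authors scaled them, and folds of genes with few reads come out too small on it. The table gives 1 level per medium. Its decimals gave back whole reads for 14 libraries: 2 on straw and 3 on each of the other media, named a, b and c only by the worth of 1 read. A further straw sample is in the labels but does not enter the deposited straw level, and so is not analysed here. Of 20 low straw values, 20 decoded with 2 libraries and 1 with 3. All 46 genes were recovered on straw, pine and maltose, 42 on aspen and 36 on cellulose. Of the missing values, those from level 13 were not searched in media with 3 libraries, and 759850 and 765667 on cellulose allowed several sets of reads. For these the deposited level is given with no SD. Over the 790 genes recovered everywhere the libraries held 425090 to 1192675 reads, a partial sum that does not give the sequencing depth. The median level of all listed genes was 9.21 on straw, 8.91 on aspen and 8.86 on cellulose, against 8.11 on pine and 8.10 on maltose. The column medians were thus higher on the upper media, which is not a shift of every gene. The gaps include whatever part of it was common to all genes. After centring every column on its median, 21 genes met the rule, all among the 46. Centring on the median difference between columns left 37, all among the 46, and quantile normalisation gave 29, 28 of them among the 46.

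The 46 genes had a median level of 11.84 on straw, 10.54 on aspen and 11.33 on cellulose, against 7.44 on pine and 6.47 on maltose. Low values lay below the middle of the table: 30 of the 46 were under the median of all genes on pine and 32 on maltose. High values lay above it for 42 of the 46 on straw, 39 on aspen and 42 on cellulose. The gap ran between 1.01 and 5.19 with a median of 2.63, a 6.18-fold step, and it was at least 3 in 20 genes and at least 4 in 7. In all 46, every recovered straw, aspen and cellulose library lay above every pine and maltose library. Over the genes recovered in all 14 libraries this held for 15.7% of the table and, as the rule all but fixes, for 36 of 36 members. The smallest distance between the lowest upper and the highest lower library was 0.33, in gene 940039, and the median distance was 2.22.

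**Figure D1:**
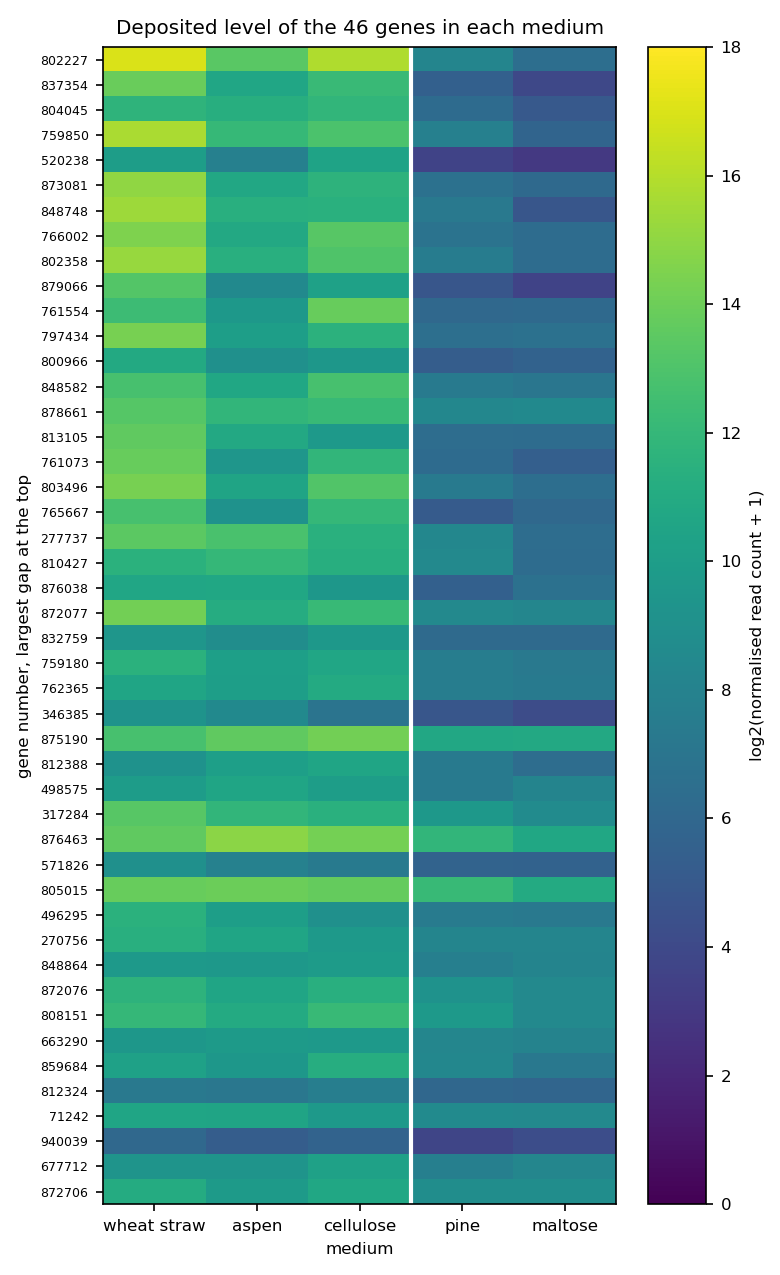
Heat map of the deposited level, as log2(normalised read count + 1), of the 46 genes (rows, largest gap at the top) in the 5 media (columns). The white line parts straw, aspen and cellulose from pine and maltose. The brightest cells are on straw, up to 16.97 for gene 802227, and the darkest is gene 520238 on maltose at 2.99.

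The 46 genes made up very different parts of the table's summed counts. The rule chose them by these same levels, so a larger share on the upper media follows from the choice. The sizes are given as a description. With levels taken off the log scale, they held 17.8% of the summed normalised counts of all listed genes on straw, 5.69% on aspen and 7.96% on cellulose, against 0.732% on pine and 0.515% on maltose. One gene weighed heavily: 802227 was the highest member on straw and cellulose, with 23.3% and 24.8% of the members' sum. Without it the shares were 14.2% on straw, 5.26% on aspen and 6.11% on cellulose, against 0.721% on pine and 0.511% on maltose. By number the members were 46 of 949 listed genes. On aspen their share of the counts was close to that. On straw 18 members were among the 100 highest genes of the table, with 5 on aspen and 8 on cellulose, against 0 on pine and 0 on maltose. In every medium the 100 highest are 100 of the 949 listed genes. Beside that share, 5 of 46 on aspen was near the background, and the straw count stood furthest from it. These shares refer to the listed genes and not to the whole transcriptome, and how the list was drawn up is not stated.

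**Figure D2:**
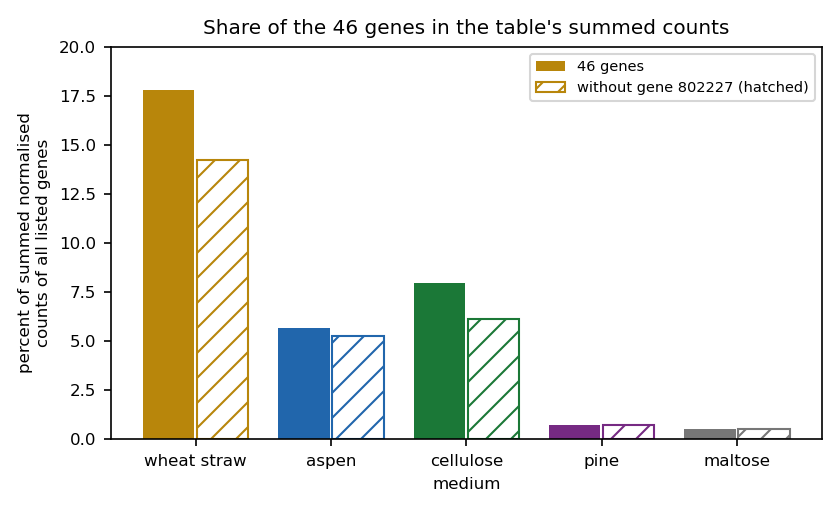
Share of the 46 genes in the summed normalised counts of all listed genes, in percent, for each medium. Filled bars hold all 46 genes and hatched bars leave out gene 802227. The straw bar reaches 17.8%, and the pine and maltose bars stay under 1%. The rule chose the genes by these same levels, so the direction follows from the choice.

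Gene 802227 had the largest gap, 5.19. It stood at 17.18 and 16.75 in the straw libraries and at deposited levels of 13.39 on aspen and 15.85 on cellulose, against 8.60, 8.11 and 7.88 in the pine libraries and 6.24, 6.53 and 6.64 in the maltose libraries. It was the highest of all listed genes on straw, and its lowest upper level lay 36.6-fold above its level on pine.

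The next gaps were close behind in genes of lower level. Gene 837354 stood at 14.18 and 13.56 on straw, 10.30, 10.85 and 10.86 on aspen and 12.27, 12.46 and 11.81 on cellulose, against 5.56, 5.65 and 5.38 on pine and 4.21, 3.92 and 3.62 on maltose. The 3 maltose libraries held 20, 16 and 12 reads of it, and no library of the upper media held fewer than 1410. Gene 804045 differed little between the upper media, at 11.79 and 11.57 on straw, 11.06, 11.31 and 11.58 on aspen and 11.72, 11.72 and 12.19 on cellulose. Its lower levels were 6.14, 6.26 and 6.47 on pine and 5.03, 4.78 and 5.24 on maltose, with a gap of 5.02.

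Genes 759850, 520238 and 873081 completed the 6 largest gaps, with gaps of 4.23, 4.17 and 4.08. Gene 759850 stood at 16.11 and 15.34 on straw and 11.94, 12.22 and 11.95 on aspen, with a deposited 12.88 on cellulose, against 8.06, 7.69 and 7.67 on pine and 5.79, 6.07 and 5.56 on maltose. Gene 520238 was the least abundant member on maltose, with 5, 9 and 10 reads there, and its pine libraries held 12, 24 and 4. Its levels were 10.18 and 9.84 on straw, 7.66, 7.99 and 7.81 on aspen and 10.57, 10.73 and 10.08 on cellulose, against 3.68, 4.73 and 2.54 on pine and 2.43, 3.16 and 3.38 on maltose. Pine and maltose overlapped in this gene, and its pine SD of 1.10 was the widest of the 46 in that medium. Gene 873081 stood at 15.27 and 14.69 on straw, 10.65, 10.88 and 10.86 on aspen and 11.74, 11.61 and 11.56 on cellulose, against 7.21, 6.38 and 6.56 on pine and 6.10, 6.01 and 6.32 on maltose.

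Not all abundant members had large gaps. By mean level over the upper media the leading genes were 802227, 876463, 805015 and 759850, and 876463 and 805015 were also high in the lower media. Gene 876463 had deposited levels of 13.58 on straw, 14.84 on aspen and 14.24 on cellulose, against 11.70, 11.77 and 12.15 in the pine libraries and 10.20, 10.63 and 11.42 in the maltose libraries. Gene 805015 had 13.81 on straw, 13.98 on aspen and 13.71 on cellulose, against 11.95, 12.14 and 12.31 in the pine libraries and 10.71, 10.79 and 11.45 in the maltose libraries. The gaps of these genes were 1.70 and 1.58, below the members' median, and in both genes every pine library lay above every maltose library.

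**Figure D3:**
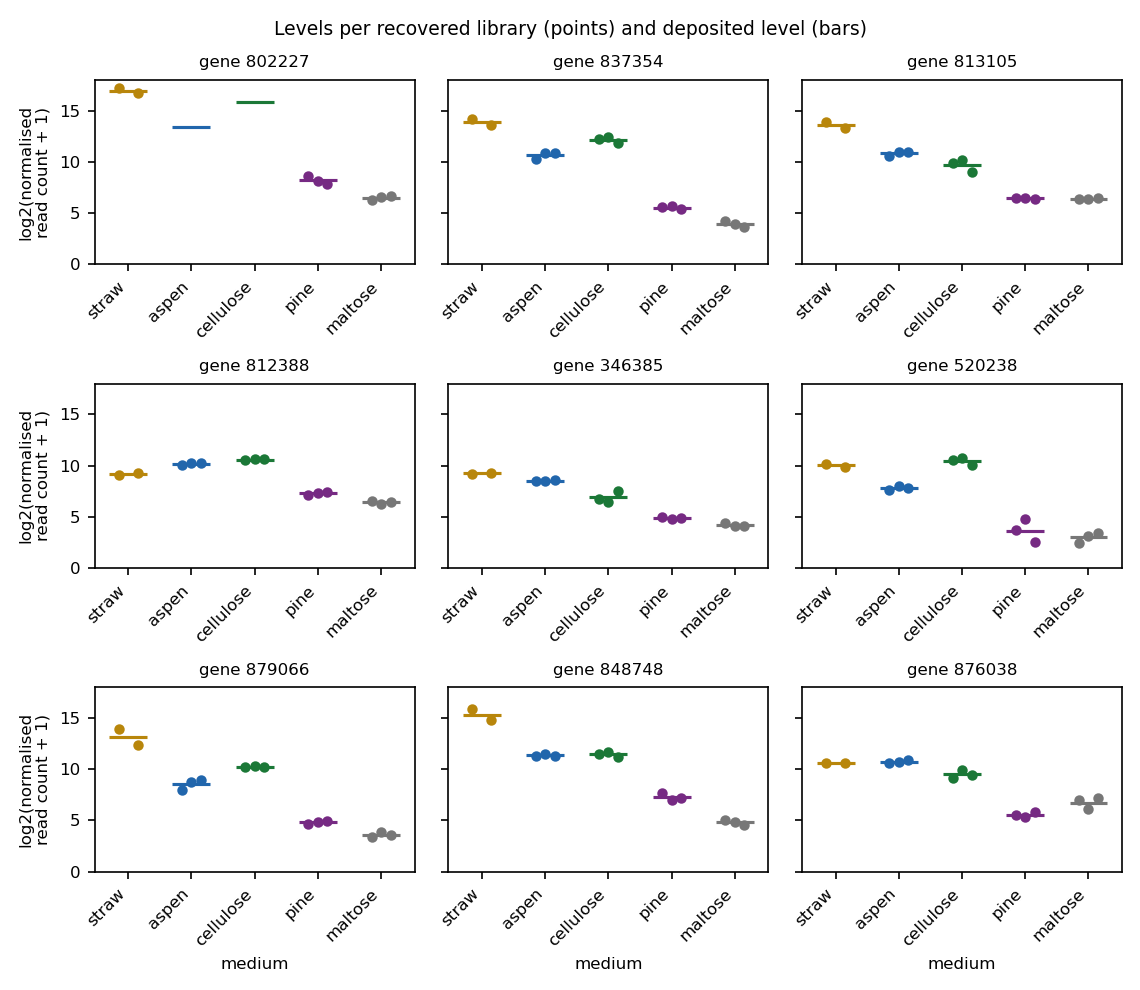
Levels of 9 members per library, as log2(normalised read count + 1), in straw, aspen, cellulose, pine and maltose. Points are recovered libraries, bars are deposited levels, and a bar without points marks a level too high to be recovered (gene 802227 on aspen and cellulose). In each panel the 3 media on the left lie above the 2 on the right.

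Within the upper media straw was most often the highest. By deposited level 27 of the 46 genes were highest on straw, 6 on aspen and 13 on cellulose, and 6 were lowest on straw, 29 on aspen and 11 on cellulose. The same counts over all listed genes are not given here. The median of all listed genes was also highest on straw, at 9.21 against 8.91 on aspen and 8.86 on cellulose. These counts and the orders below therefore describe the members without setting them apart from the table. The commonest order, with 19 genes, was straw over cellulose over aspen. It included 802227, 837354, 759850, 873081, 848748 and 879066. Another 10 genes ran cellulose over straw over aspen and 8 ran straw over aspen over cellulose, while the other orders had 3 genes each. Pairs of upper media did not always differ beyond the spread between libraries. For straw against aspen the limma adjusted p was 0.05 or more in 7 of 42 members tested. The same held in 12 of 36 for straw against cellulose and 6 of 36 for aspen against cellulose. These counts take each pair over all tested members, whether or not both media are neighbours in a gene's order.

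Straw exceeded aspen in most of the tested genes. A gene was called where the adjusted p of limma, fitted to all libraries and genes and adjusted by Benjamini-Hochberg over all genes tested, fell below 0.05 with a log2 difference of 1 or more. Of the 42 members tested, 24 rose on straw relative to aspen and 1 fell, that is 57.1% and 2.38%. Over all 861 genes tested, 20.3% rose and 9.64% fell. The median difference was 1.28 in the members and 0.07 over all genes. After quantile normalisation the members' calls were 15 higher and 6 lower. With that scaling restricted to genes recovered everywhere, which leaves 36 members, they were 13 higher and 3 lower. The 6 tested members lost by this restriction had all been called higher, so the fall is not from the scaling alone. By deposited levels alone 25 of all 46 genes were at least 1 higher on straw and 2 lower, against 19.3% and 10.6% of the table.

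The largest difference was in gene 879066, with 13.97 and 12.33 on straw against 7.95, 8.74 and 8.92 on aspen. The straw libraries were far apart, with 16019 and 4861 reads, yet the lower one still lay above every aspen library. Its log2 difference was 4.61 (SE 0.37, limma adjusted p = 7.99e-08), a 24.5-fold difference of the deposited levels. Gene 761073 followed with 14.22 and 13.46 on straw against 9.28, 9.71 and 9.43 on aspen, a difference of 4.37 (SE 0.24, limma adjusted p = 2.64e-09). Among the tested members the exception was gene 812388, at 9.10 and 9.26 on straw against 10.02, 10.26 and 10.28 on aspen. Its difference was -1.01 (SE 0.13, limma adjusted p = 1.02e-05), and it was no longer called without straw library a (-0.93) or without aspen library b or c. Of the untested members, 876463 lay further on that side with a deposited difference of -1.27, while 802227 lay 3.58 higher on straw.

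Straw was also above cellulose in a large part of the genes. Of the 36 members tested, 17 rose on straw relative to cellulose and 2 fell, or 47.2% and 5.56%, against 21.7% and 9.33% of the 847 genes tested in all. The median difference was 0.85 in the members and 0.16 over all genes. This split turned under quantile normalisation, with 7 members higher and 8 lower, where straw libraries with their high genes are matched to cellulose libraries without them. Restricted to genes recovered everywhere, the same scaling left 13 higher and 3 lower. The 10 members with no cellulose libraries were not tested. By deposited levels alone 22 of all 46 genes were at least 1 higher on straw and 4 lower, against 20.8% and 11.1% of the table.

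Genes 813105 and 848748 led the straw side. Gene 813105 stood at 13.89 and 13.28 on straw against 9.85, 10.15 and 8.99 on cellulose, with no overlap although its cellulose SD of 0.60 was the widest among the members in that medium. Its difference was 3.92 (SE 0.26, limma adjusted p = 1.20e-08), a 15.1-fold difference. Gene 848748 stood at 15.88 and 14.79 on straw against 11.46, 11.68 and 11.22 on cellulose, a difference of 3.89 (SE 0.26, limma adjusted p = 1.38e-08), which quantile normalisation lowered to 1.79. Both cellulose-favoured calls among the tested genes were small. Untested genes 761554 and 875190 lay further on that side by deposited level, at -1.51 and -1.42, while no untested gene passed 848748 on the straw side. Gene 812388 stood at 9.10 and 9.26 on straw against 10.51, 10.63 and 10.61 on cellulose, a difference of -1.40 (SE 0.13, limma adjusted p = 3.15e-07). Gene 677712 stood at 9.20 and 9.40 on straw against 10.46, 10.40 and 10.05 on cellulose, a difference of -1.01 (SE 0.14, limma adjusted p = 2.22e-05) that lost its call without straw library a (-0.91) or without cellulose library a or b.

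Between aspen and cellulose the calls went in both directions. Of the 36 members tested, 5 rose on aspen relative to cellulose and 8 fell, or 13.9% and 22.2%. Over the 823 genes tested in all, 15.1% rose and 15.9% fell, so the shares of the tested members were near the background. The 10 members not tested, most of them with a cellulose level above 13, were outside these shares. The median difference was -0.49 in the members and 0.11 over all genes. Centring on the median difference gave 4 higher and 11 lower, and quantile normalisation 8 higher and 7 lower, so the majority turned with the scaling. By deposited levels alone 5 of all 46 genes were at least 1 higher on aspen and 14 lower, against 15% and 17.2% of the table. With the untested members included, on the deposited scaling, the cellulose-favoured share was thus larger than in the table.

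On the aspen side, gene 346385 stood at 8.52, 8.51 and 8.55 on aspen against 6.77, 6.48 and 7.53 on cellulose, a difference of 1.60 (SE 0.21, limma adjusted p = 1.36e-05). Gene 277737 stood at 12.50, 12.93 and 13.13 on aspen against 11.35, 11.73 and 11.28 on cellulose, a difference of 1.40 (SE 0.23, limma adjusted p = 1.07e-04). Neither gene had overlapping libraries. Among the tested genes on the cellulose side, gene 520238 stood at 7.66, 7.99 and 7.81 on aspen against 10.57, 10.73 and 10.08 on cellulose. Its difference was -2.64 (SE 0.41, limma adjusted p = 5.73e-05). Gene 761073 stood at 9.28, 9.71 and 9.43 on aspen against 11.76, 12.00 and 11.82 on cellulose, a difference of -2.39 (SE 0.22, limma adjusted p = 3.38e-07). Some untested members lay further on the cellulose side by deposited level: 761554 at -4.23, 765667 at -2.80 and 803496 at -2.65. No untested member exceeded gene 277737 on the aspen side.

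Some members had no call within the upper media. In 10 of the 36 members tested in all 3 contrasts, or 27.8%, against 52.2% of the 823 genes so tested, no contrast reached a call. They were genes 804045, 810427, 832759, 762365, 498575, 848864, 663290, 812324, 71242 and 940039. Their differences were at most 0.93 in size, with SEs of 0.11 to 0.32, and 15 of the 30 tests still had an adjusted p under 0.05 by limma. They are not shown to be equal across the media. Their gaps ran between 1.09 and 5.02, and 804045 was the single one of them with a gap above 3. These genes were grouped after their values were seen.

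Larger gaps went with a wider spread inside the upper media. The 23 genes with gaps of 2.65 or more had median levels of 13.59 on straw, 10.79 on aspen and 11.88 on cellulose, with 6.72 on pine and 6.36 on maltose. The other 23 had 10.55 on straw, 10.10 on aspen and 10.30 on cellulose, with 7.76 on pine and 8.10 on maltose. Straw was called above aspen in 18 of the 22 genes tested with large gaps, and in 6 of the 20 tested with small gaps. The grouping uses the rule's own values, and the rule lets no step inside the upper media exceed the gap. Genes with small gaps could therefore not show steps as large, and part of this difference was fixed in advance. It is a description.

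The genes were low on both pine and maltose. Most were not called between these media, which also held for all genes tested. Of the 46 members tested, 13 rose on pine relative to maltose and 1 fell, or 28.3% and 2.17%, against 20.3% and 18.1% of the 832 genes tested in all. The median difference was 0.37, against 0.06 over all genes, and in 21 genes the deposited levels lay within 0.5. The share of all genes within 0.5 is not given here, and the rule bounds this step by the gap. By deposited levels alone 13 genes were at least 1 higher and 1 lower, against 20.1% and 19% of the table.

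Gene 848748 had the largest difference, at 7.65, 7.05 and 7.20 on pine against 5.03, 4.87 and 4.56 on maltose. It amounted to 2.48 (SE 0.23, limma adjusted p = 2.88e-07), a 5.59-fold difference, and its lowest upper level still lay 16.7-fold above pine. Gene 810427 stood at 8.36, 8.34 and 8.70 on pine against 6.21, 6.46 and 6.40 on maltose, a difference of 2.11 (SE 0.15, limma adjusted p = 1.67e-08). Both genes had no overlap between the media. Gene 876038 alone fell, with 5.50, 5.34 and 5.81 on pine against 6.97, 6.09 and 7.17 on maltose. Its difference of -1.19 (SE 0.25, limma adjusted p = 7.10e-04) lost its call without maltose library c, at -0.98. Elsewhere this gene was high, at 10.61 and 10.66 on straw, 10.61, 10.76 and 10.88 on aspen and 9.13, 9.97 and 9.40 on cellulose.

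**Figure D4:**
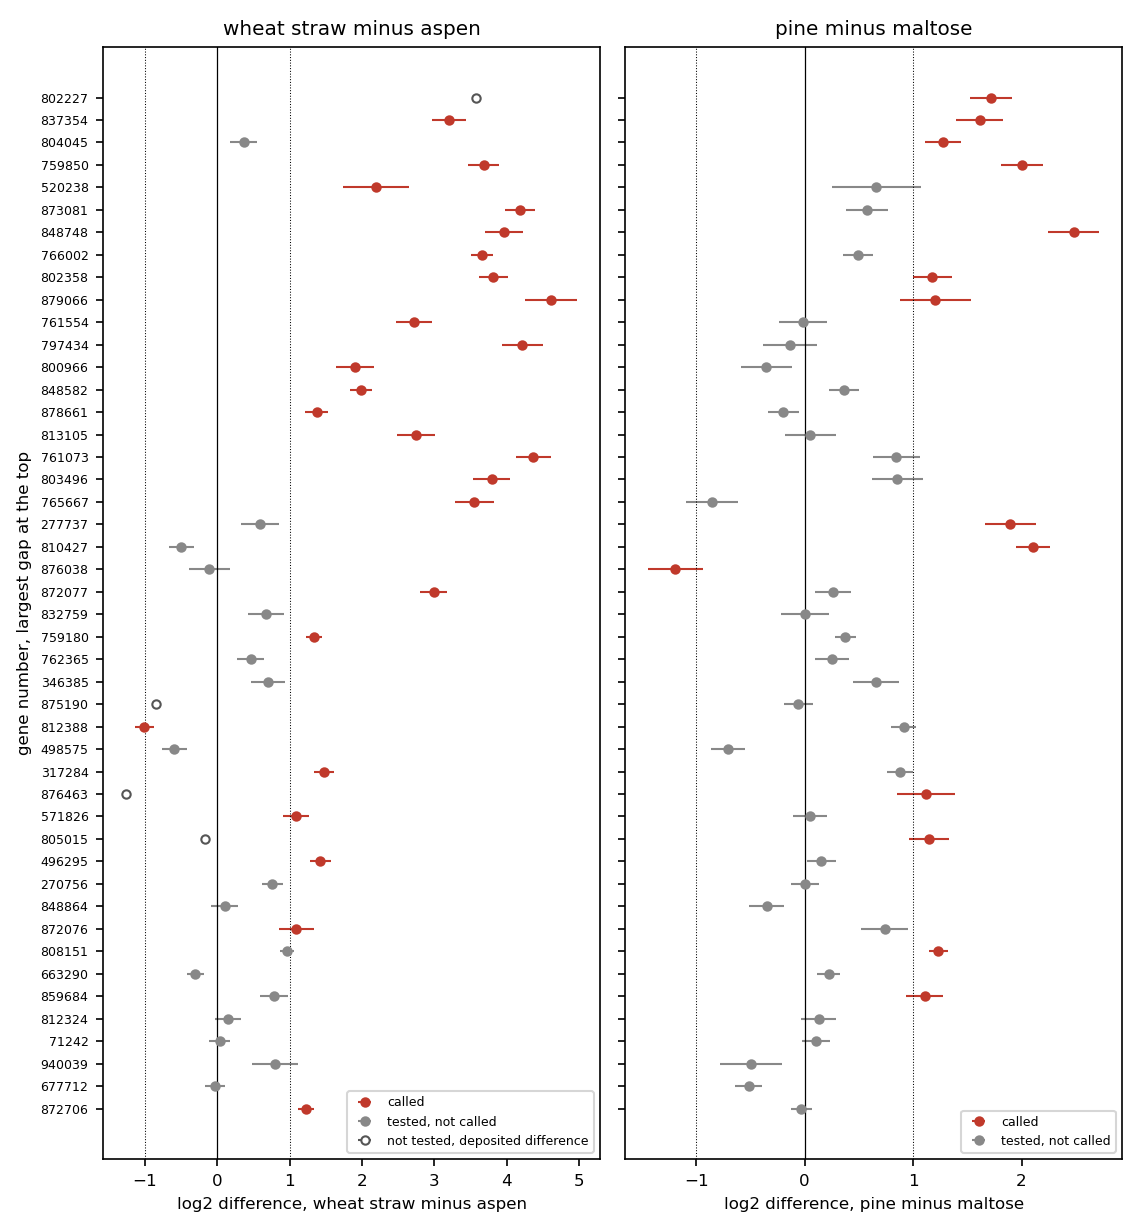
Log2 difference of straw minus aspen (left) and pine minus maltose (right) for the 46 genes, largest gap at the top. Points are limma estimates with bars of 1 SE, red where called, grey where not, and open circles are deposited differences that were not tested. On the left 24 red points lie right of 1, and on the right 13 do.

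The spread between the straw libraries was wide in these genes, a description with no test. The median SD between libraries was 0.28 on straw, against 0.12 over all genes in that medium. It was 0.16 on aspen, 0.21 on cellulose, 0.21 on pine and 0.18 on maltose, where all genes had medians of 0.16 to 0.17. The straw SD rests on 2 libraries. Straw library a lay above library b in 35 of the 46 members, with a median difference of 0.39. Over all 949 genes this held for 55.1%, with a median of 0.03, and for 50.4% of the 250 other genes between the quartiles of the members' straw levels. That range, 10.36 to 13.76, leaves out the members with the highest and the lowest straw levels. Summed over the 46 genes, library a held 683136 normalised counts and library b 445543.

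The widest differences between the straw libraries were in genes 879066 with 1.64, 797434 with 1.18, 848748 with 1.09 and 277737 with 1.09. Gene 797434 is named after its values were seen. The limma SE pools the spread of all media, so it does not reflect the straw spread of a single gene. Gene 879066, for instance, had a straw SD of 1.16 and an SE of 0.37 for straw against aspen. Where the straw libraries lie far apart, the SEs and p-values of the straw contrasts may therefore be too small. Without straw library a, straw was called above aspen in 22 members and below in 0, and without library b in 26 and 1. What sets these straw libraries apart was not tested.

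**Figure D5:**
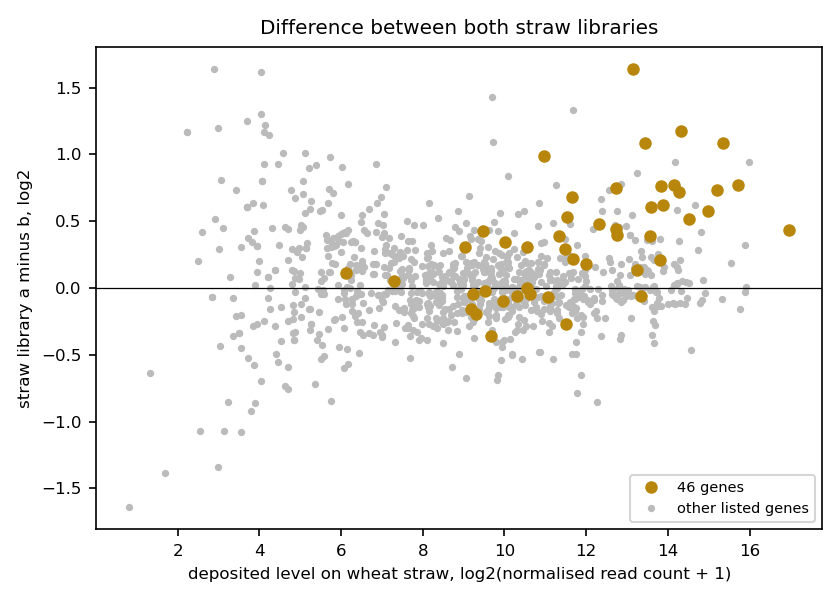
Straw library a minus library b on the log2 scale (vertical) against the deposited straw level (horizontal) for all 949 genes. Gold points are the 46 genes and grey points the others. At straw levels above 11, 27 of the 30 gold points lie above 0, up to 1.64 for gene 879066. The share of grey points above 0 at those levels is not given. Over all 949 genes the difference ran from -1.64 to 1.64.

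The same gap rule gave 61 genes low only on maltose and 36 genes low only on pine, the patterns that differ from this one by adding pine or maltose above the gap. Among 403 genes with a gap of at least 1, the present pattern ranked 3 of 27 by number of genes. Straw was called above aspen in 57.1% of the tested members, in 16% of the tested genes low only on maltose and in 53.1% of those low only on pine. Straw was called above cellulose in 47.2% of the members, 42.6% of the genes low only on maltose and 13.8% of those low only on pine. The differences between these sets were not tested, and neither share is called particular to the members.

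At the threshold the choice was a matter of small steps. Just inside lay 940039 with a gap of 1.09, 677712 with 1.02 and 872706 with 1.01. Just outside lay 849097 with 0.99, 45766 with 0.82 and 813396 with 0.78, among 22 genes with the same media above a largest gap under 1. Gene 940039 had the lowest level of the members on each upper medium, with 71 and 62 reads on straw, 36, 37 and 54 on aspen and 44, 41 and 71 on cellulose, against 12, 14 and 9 on pine and 16, 18 and 27 on maltose. Gene 872706 stood at 11.03 and 11.10 on straw, 9.93, 9.78 and 9.79 on aspen and 10.74, 10.69 and 10.68 on cellulose, against 8.87, 8.86 and 8.65 on pine and 8.65, 8.93 and 8.89 on maltose. Gene 849097, on the other side of the threshold, had deposited levels of 9.51 on straw, 9.28 on aspen and 8.47 on cellulose, against 7.48 on pine and 6.82 on maltose.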

How the data were processed

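The samples, their media and their culture are described above. Per the labels' protocols, libraries were made from poly A RNA and read from both ends on a HiSeq 2500. TopHat2, HTSeq and DESeq 1.5 appear, without a role, among the submitters' processing notes. The sources used here name no build, annotation, strand setting or pseudocount. Per the file headers, the table the authors deposited has a normalised log2 read count for each medium, over 949 genes. Near-identical or overlapping genes could not be examined.

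A unique set of whole reads was found for 4376 of the 4745 values, each read as the average of log2(reads x factor + 1) over 2 libraries on straw and 3 on the other media. Search ranges and tolerances (3e-14 below level 9, 6e-14 below 10 and 1.6e-13 from 10, on the natural log scale) were settled after the data were seen. Of 1741 values from level 9 to 13, several sets were possible for 36 and a set was lacking for 0. Of the same values shifted by 1e-06 as decoys, 31 also gave a set. The 333 values from level 13 in media with 3 libraries were not searched. Replicates differed by more than sampling noise in all 13 pairs (chi-square per degree of freedom 3.86 to 96.5).

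Limma 3.58.1 (R 4.3.3) was fitted to the recovered levels of 14 libraries with a mean per medium and an intensity trend. It and the decoding were tested on simulated data, the decoding only on pine and straw values of lower level. The limma simulation took its spread from media other than straw. These tests therefore do not cover the higher levels or the wider spread on straw. The members and lists were chosen with earlier results of these data known. Genes named are the 6 largest gaps, the 4 highest mean upper levels, up to 2 calls per direction and contrast, and the 3 nearest the threshold on either side. Untested members set beside these calls were added after their values were seen. The enzyme family lists could not be matched to gene numbers.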

Additional observations from a re-analysis of the deposited data

How the results depend on the processing

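The number of genes meeting the rule was 46 as reported, 21 after centring columns on their median, 37 after centring on the median difference, 29 after quantile normalisation and 76 where the lowest upper level only had to lie 1 above the higher of pine and maltose. Median centring and quantile normalisation remove the higher column medians of the upper media by construction, and the last count drops the demand that this gap be the largest. Leaving out 1 library at a time gave 44 to 51 genes, where genes not recovered in a medium kept their deposited level there. Thresholds of 0.75 and 1.5 gave 51 and 36 genes. Calls among the members, both directions together, ranged under leaving out 1 library between 17 and 19 for straw against cellulose, 13 and 16 for aspen against cellulose, 22 and 27 for straw against aspen and 13 and 15 for pine against maltose. Quantile normalisation over genes recovered in every library, chosen after seeing the data, gave 16 calls for straw against aspen and 9 for pine against maltose, over 36 members in place of 42 and 46. The other alternatives left these counts within 1.5 times the reported ones. Because the counts join both directions, they hide changes in the split. Quantile normalisation turned straw against cellulose from 17 higher and 2 lower to 7 higher and 8 lower. It turned aspen against cellulose from 5 higher and 8 lower to 8 higher and 7 lower. Genes named for a call kept their direction throughout, and 7 of 189 of their recalculated differences lost the call, in genes 677712, 812388 and 876038. No paired analysis was possible because the deposited columns carry no replicate number. Levels above 13 and the 2 straw libraries limit the tests of the most abundant genes.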
